A study of Mus musculus with 13 samples.

Results

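The genes Lpar3, Cd55, Agtr1a, Prkcq, Tmem45b, Tmem233, Lynx1, Wnt2b, Dgkz and Otoa, 10 markers of nonpeptidergic nociceptors, were followed across all 13 libraries of a bulk RNA sequencing study of sorted mouse dorsal root ganglion (DRG) cells. They were taken as a given list and found in the count tables through their Ensembl identifiers, and all 10 were present among the 41388 genes of the files. All 10 also passed the filter on low counts, which kept 15406 genes, and no library had fewer than 27 counts of any of them. The cells carried enhanced green fluorescent protein (EGFP) reporting Ret, the signalling receptor of glial cell line-derived neurotrophic factor, and were sorted by their fluorescence from C57BL/6 mice at 3 months of age. The genotype label of the samples is Tg(Ret-EGFP)SJ, the name form of a transgene, while the study's design text describes EGFP knocked into the Ret locus of heterozygotes. In either case the sort can hold every DRG cell in which the reporter was active and is not limited to nonpeptidergic neurons.

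The groups were ganglia of spinal levels L6 and S1 (L6S1) from males, 4 libraries lettered A, D, E and F from 20 mice, ganglia of L3 to L5 (L345) from males, 3 libraries lettered A, B and C from 11 mice, L6S1 from females, 3 libraries lettered A to C from 16 mice, and L345 from females, 3 libraries lettered A to C from 14 mice. All groups share the reporter, the strain and the age, and none was treated. Between 2 and 9 mice were pooled per library, and the labels do not say whether a mouse gave ganglia to both levels. Total counts per library ran from 13030096 to 27011995. Values below are in CPM, the count of a gene scaled to a library of fixed size after correction by a TMM factor, which evens out differences in composition between libraries.

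Nonpeptidergic nociceptors are unmyelinated pain-sensing neurons that bind isolectin B4 and make little of the neuropeptides calcitonin gene-related peptide and substance P. In the mouse they turn from nerve growth factor to Ret signalling during development, under the transcription factor Runx1, and many of them end in the epidermis and carry the receptor Mrgprd. The genes followed here play several roles in such a cell. Lpar3 and Agtr1a are G protein-coupled receptors, for lysophosphatidic acid and for angiotensin II. Cd55 is decay-accelerating factor, a surface inhibitor of complement, and Lynx1 is a surface protein of the Ly6 family that modulates nicotinic acetylcholine receptors. Prkcq, protein kinase C theta, is activated by diacylglycerol, and Dgkz, diacylglycerol kinase zeta, converts diacylglycerol to phosphatidic acid. Tmem45b and Tmem233 are transmembrane proteins, Wnt2b is a secreted Wnt ligand, and Otoa is otoancorin, best known from the inner ear.

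Other genes of these neurons were looked up in the same libraries. A further list of 26 nonpeptidergic genes, among them Mrgprd, was detected in full, and Mrgprd averaged 438 CPM over the 13 libraries. Detection of these genes in a sorted pool cannot tell which cells the genes followed here came from. Whether the genes followed here mark nonpeptidergic neurons in these libraries was not tested. In a sorted pool, fewer cells of a type and less RNA per cell cannot be told apart. Genes that mark other cell types were also detected. Calca, which marks peptidergic nociceptors, averaged 7583 CPM. The summed level of 23 satellite glia and Schwann cell genes ranged from 4057 to 10077 CPM over the libraries. Of these, Pmp22 alone averaged 2625 CPM, and Sox10 averaged 4.82 CPM. Whether these transcripts came from other cells in the sort was not tested.

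Male L6S1 D and E stood apart from the other 11 libraries before any comparison of groups. The mean exon length of the gene behind a count was 3390 nucleotides in D and 3081 in E, against 4065 to 4806 in the other 11. Cytosolic ribosomal protein genes took 1.36% of counts in D and 1.09% in E, against 0.438% to 0.638%. The TMM factor was 0.925 in D and 0.796 in E, against 1.01 to 1.05 in the other 11. The labels of E and F are also worded differently from those of the other male samples, and no label gives a date or batch.

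Compared per kilobase of exon length, the list spanned more than 2 orders of magnitude. Tmem45b was the most abundant at 552 ± 88.6 CPM per kilobase (SD, n = 13), which placed it at percentile 99.4 of the 15406 genes tested. Cd55 followed at 158 ± 49.1 and Tmem233 at 154 ± 57.0 CPM per kilobase, and Cd55 was the higher of this pair in only 6 of 13 libraries. Dgkz averaged 33.1 ± 8.79, Lpar3 21.3 ± 9.73, Prkcq 17.4 ± 7.09, Lynx1 15.3 ± 5.61 and Agtr1a 12.1 ± 3.85 CPM per kilobase. Otoa was near the bottom at 6.6 ± 1.99 and Wnt2b last at 1.29 ± 0.57 CPM per kilobase, percentile 32.4. Between neighbours in this order, the ranges over libraries did not overlap for Tmem45b over Cd55, for Tmem233 over Dgkz and for Otoa over Wnt2b. The other neighbours overlapped, although Dgkz was above Lpar3 in 13 of 13 libraries.

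**Figure D1:**
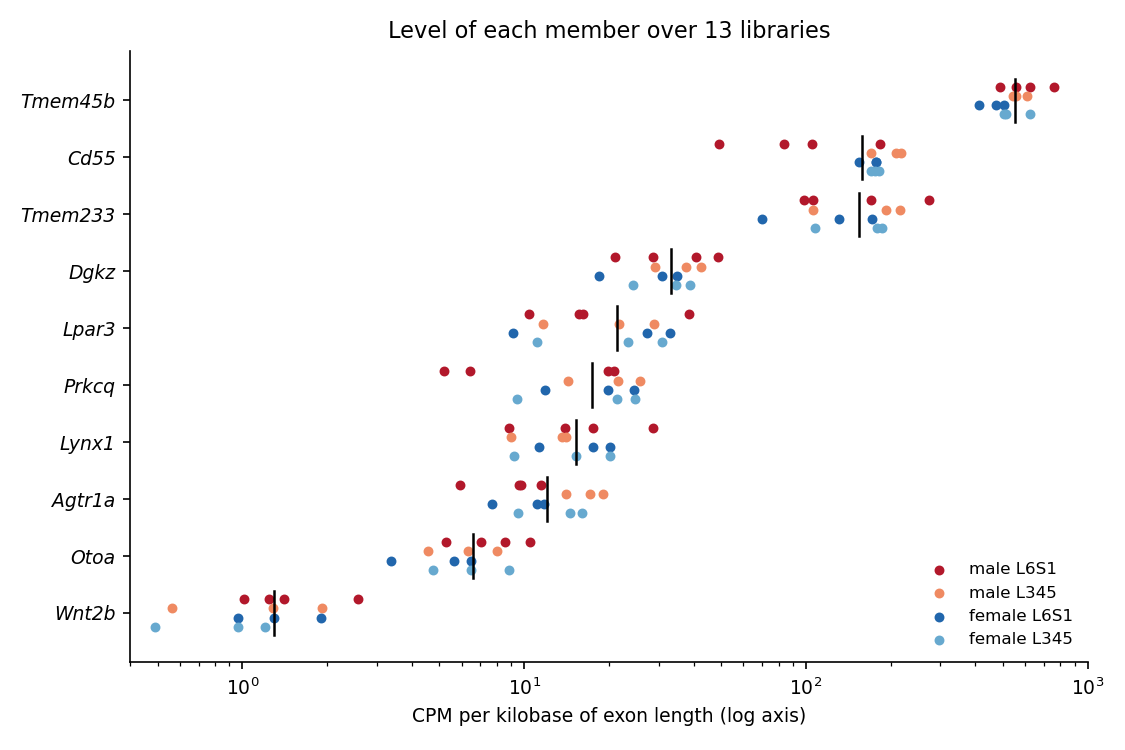
Level of each gene in CPM per kilobase of exon length on a log axis, 1 point per library, coloured by group, with the mean over the 13 libraries as a black line. Tmem45b lies above all others at 412 to 763 CPM per kilobase, and Wnt2b below all others at 0.49 to 2.58.

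The promoters of 4 members are shown because their levels parted in male L6S1 D and E, where Cd55 and Prkcq were low and Tmem233 and Otoa were not, as described further on. Each is the window of 300 bases around the gene start given by RefSeq for GRCm38.p6, 250 before it and 50 after, written 5′ to 3′ along the gene's strand. Capitals mark GC boxes, GGGCGG or its reverse complement CCGCCC. The window of Cd55 is chr1:130462695-130462994 (minus strand), that of Prkcq chr2:11172132-11172431 (plus strand), that of Tmem233 chr5:116083218-116083517 (minus strand) and that of Otoa chr7:121083174-121083473 (plus strand).
Cd55: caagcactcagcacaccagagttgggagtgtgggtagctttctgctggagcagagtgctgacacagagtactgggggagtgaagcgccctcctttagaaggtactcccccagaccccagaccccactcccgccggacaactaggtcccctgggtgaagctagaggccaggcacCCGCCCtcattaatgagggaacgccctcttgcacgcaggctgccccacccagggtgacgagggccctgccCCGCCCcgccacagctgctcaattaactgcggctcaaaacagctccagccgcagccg
Prkcq: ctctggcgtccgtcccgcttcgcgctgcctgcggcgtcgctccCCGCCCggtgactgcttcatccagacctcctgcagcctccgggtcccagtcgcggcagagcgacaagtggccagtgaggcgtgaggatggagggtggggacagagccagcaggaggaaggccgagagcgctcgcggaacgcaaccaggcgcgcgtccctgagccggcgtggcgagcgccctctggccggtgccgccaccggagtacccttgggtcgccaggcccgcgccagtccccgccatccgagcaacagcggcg
Tmem233: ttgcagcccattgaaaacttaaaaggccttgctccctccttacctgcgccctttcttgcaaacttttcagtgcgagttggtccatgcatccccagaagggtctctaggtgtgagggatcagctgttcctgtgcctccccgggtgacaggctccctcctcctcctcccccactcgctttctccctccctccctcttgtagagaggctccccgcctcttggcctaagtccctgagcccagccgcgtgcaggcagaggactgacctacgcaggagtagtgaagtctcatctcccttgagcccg
Otoa: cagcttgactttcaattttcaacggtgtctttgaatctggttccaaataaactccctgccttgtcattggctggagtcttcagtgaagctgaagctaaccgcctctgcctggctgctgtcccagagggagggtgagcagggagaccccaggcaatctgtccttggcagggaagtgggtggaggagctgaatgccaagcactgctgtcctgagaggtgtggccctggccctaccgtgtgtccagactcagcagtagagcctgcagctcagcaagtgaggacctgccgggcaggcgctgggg
Cd55 had 2 GC boxes and Prkcq 1, while Tmem233 and Otoa had none. Of the 8 windows found for 7 of the 10 genes, 6 held at least 1 GC box, against 35.7% of the 32851 windows of the table. The Lpar3 window had 3 boxes, the Wnt2b window 4, and the pair of Dgkz windows 5 and 1. In male L6S1 D, Lpar3, Wnt2b and Dgkz had log2 deviations from the median of the other 11 libraries of -0.58, -0.04 and 0.24. In male L6S1 E these were -1.15, -0.29 and -0.72. The 4 genes shown were picked by their levels, and a link between GC boxes and levels was not tested. The core sequence bound by Runx factors, TGTGGT or its reverse complement ACCACA, was in 0 of the 8 windows and in 16.8% of all windows.

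None of the 10 genes passed the test for a difference between L6S1 and L345. In the mouse, L6 and S1 ganglia supply pelvic organs and the perineum among other targets, and L3 to L5 ganglia supply mainly the hindlimb. Averaged over the sexes, edgeR's quasi-likelihood test with Benjamini-Hochberg adjustment over all genes called 0 of 10 at an adjusted p under 0.05, and it called 69 of 15406 genes, 0.448%. With L345 as the base, 7 of 10 were lower and 3 higher in L6S1, with a median log2 fold change of -0.11, against a median of 0.016 over all genes tested. At an unadjusted p under 0.05 there was 1 of 10, Agtr1a, against 8.39% of all genes. In males alone 0 of 10 were called (0.221% of all genes), with 2 of 10, Agtr1a and Cd55, at an unadjusted p under 0.05 (25.3% of all genes). In females alone 0 of 10 were called (0.0195% of all genes), and 0 of 10 had an unadjusted p under 0.05 (2.25% of all genes).

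**Figure D2:**
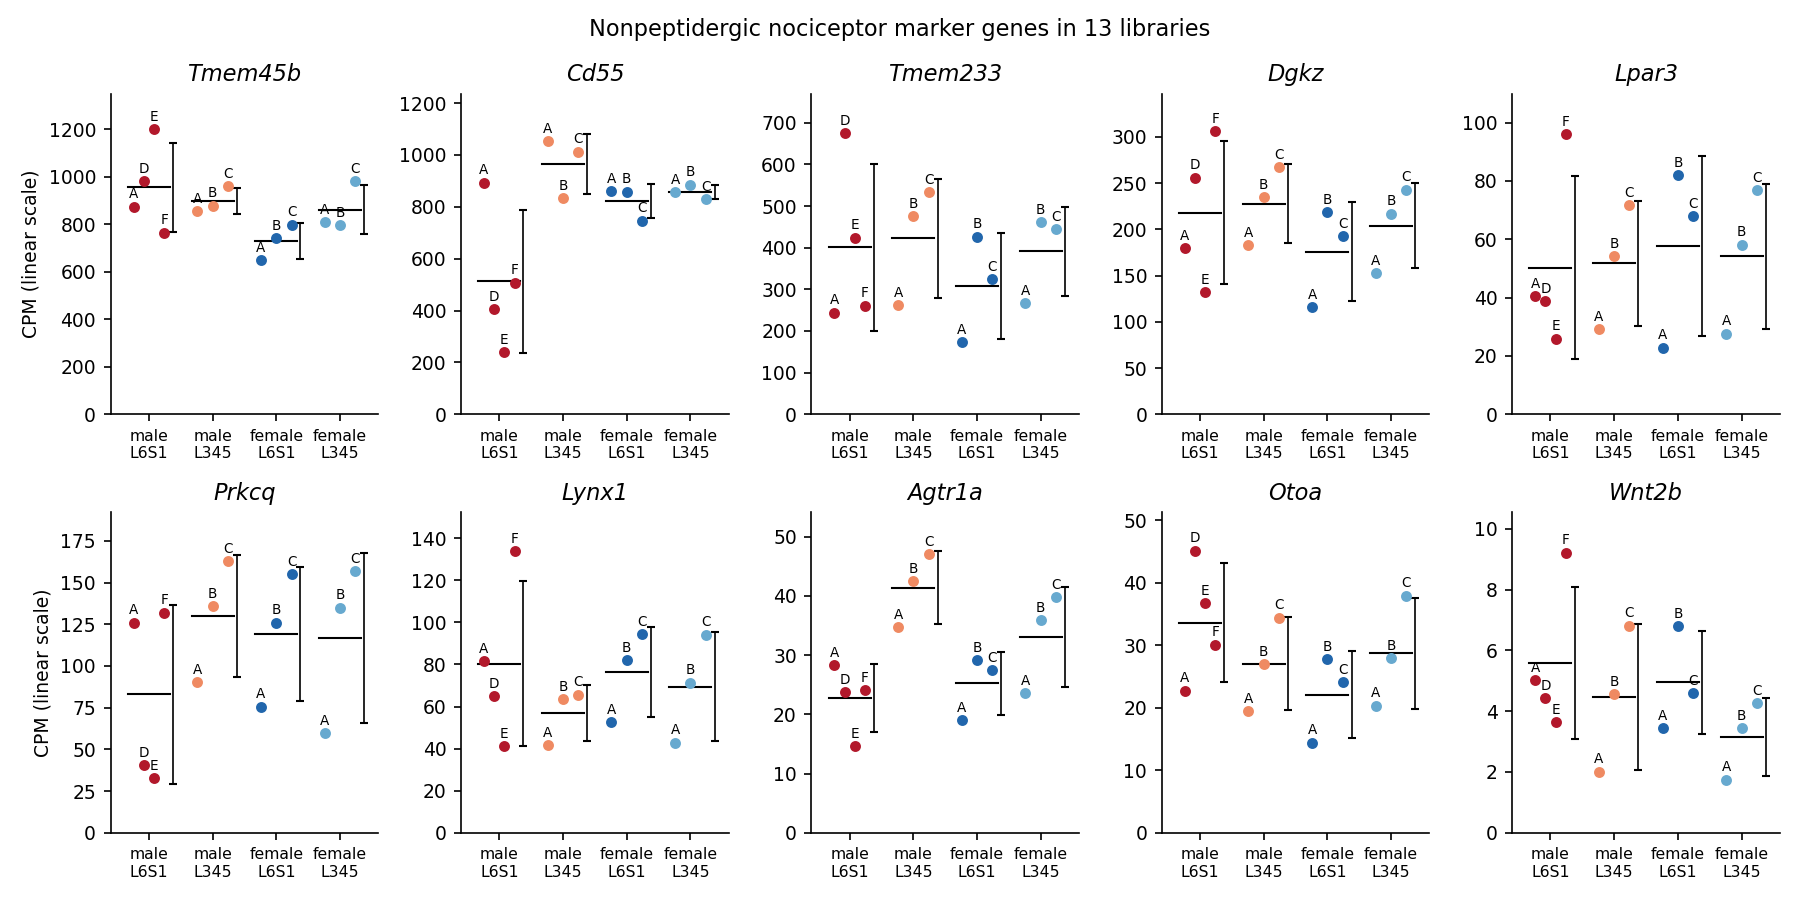
CPM of each gene in every library on a linear scale, with male L6S1, male L345, female L6S1 and female L345 from left to right. Letters name the libraries, horizontal lines are group means and the bar beside each group is 1 SD on either side (n = 4, 3, 3 and 3). Agtr1a in males is the only case in which L6S1 and L345 of 1 sex do not overlap, and in most panels letter A is the lowest of its group of 3.

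Of the receptors, Agtr1a came closest to a difference. It had 28.3, 23.7, 14.6 and 24.1 CPM in male L6S1 A, D, E and F, against 34.7, 42.5 and 47.0 CPM in male L345 A, B and C. In females it had 19.0, 29.1 and 27.4 CPM in L6S1 A, B and C, against 23.6, 35.9 and 39.8 CPM in L345 A, B and C. All 4 male L6S1 libraries were thus below all 3 male L345 libraries, while in females the groups overlapped. Set pair by pair, over the 4 pairs of libraries with the same sex and letter, Agtr1a was lower in L6S1 in 4 of 4. So was Tmem233, while Lynx1 and Wnt2b were higher in L6S1 in 4 of 4, and of all genes tested 8.97% were lower and 9.57% higher in every pair. With the letter as a block, only these 4 pairs inform the level effect, and most of them are female. That fit gave Agtr1a a log2 fold change of -0.36 over both sexes (adjusted p = 0.428), with -0.38 in females and -0.30 in males. It does not weigh the sexes equally, as the group comparison does. In the group comparison, Agtr1a was 1 of 10 members with L6S1 wholly below L345 in males, against 9.49% of all genes tested. Wholly above were 0 of 10 in males (9.20% of all genes), and in females 0 of 10 were wholly below (3.86%) or above (4.89%). The log2 fold change was -0.87 in males (SE 0.28, adjusted p = 0.137), -0.39 in females (SE 0.30, adjusted p = 1) and -0.63 over both sexes (SE 0.20, adjusted p = 0.37). The male difference passed under DESeq2 (log2 fold change -0.85, adjusted p = 0.047), which called 7.53% of all genes it tested, and without male L6S1 A (-0.99, adjusted p = 0.0299), a fit that called 20.5% of all genes, while without D and E it was -0.67 (adjusted p = 0.623). A near-identical copy, Agtr1b, averaged 31.5 CPM, so reads of the pair may have been split between them.

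Lpar3, the other receptor, varied widely within every group. It had 40.5, 38.8, 25.9 and 96.1 CPM in male L6S1 A, D, E and F, against 29.2, 54.1 and 71.7 CPM in male L345 A, B and C. Female L6S1 A, B and C had 22.8, 82.0 and 67.8 CPM, against 27.6, 58.1 and 76.8 CPM in female L345 A, B and C. A was the lowest in each of the 3 groups with A, B and C, the levels overlapped in both sexes, and the log2 fold change was -0.04 in males (SE 0.50) and 0.09 in females (SE 0.53).

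Cd55, the complement inhibitor, was steady in females and spread out in male L6S1. It had 893, 406, 239 and 508 CPM in male L6S1 A, D, E and F, against 1052, 832 and 1012 CPM in male L345 A, B and C. In females it had 861, 858 and 746 CPM in L6S1 A, B and C, against 856, 885 and 830 CPM in L345 A, B and C. Male L6S1 D, E and F lay below every other library, and A lay among the rest. The log2 fold change was -0.92 in males (SE 0.33, adjusted p = 0.142) and -0.06 in females (SE 0.35, adjusted p = 1). Leaving out male L6S1 A gave -1.33 with an adjusted p of 0.0133, in the fit that called 20.5% of all genes, and leaving out D and E gave -0.47 with an adjusted p of 0.623. The copy Cd55b reached at most 0.223 CPM.

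Lynx1, the nicotinic receptor modulator, had 81.5, 65.1, 41.3 and 134 CPM in male L6S1 A, D, E and F, against 41.8, 63.5 and 65.6 CPM in male L345 A, B and C. Its values were 52.7, 82.0 and 94.3 CPM in female L6S1 A, B and C, against 42.8, 71.4 and 94.2 CPM in female L345 A, B and C. Male L6S1 F was the highest library and E the lowest, both of 1 group. The log2 fold change was 0.50 in males (SE 0.38, adjusted p = 0.402) and 0.14 in females (SE 0.40, adjusted p = 1).

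The diacylglycerol pair parted from each other in male L6S1. Prkcq had 126, 40.7, 32.9 and 132 CPM in male L6S1 A, D, E and F, against 90.2, 136 and 163 CPM in male L345 A, B and C. In female L6S1 A, B and C it had 75.5, 126 and 155 CPM, against 59.9, 135 and 157 CPM in female L345 A, B and C. D and E were the lowest of all 13 libraries, while A and F lay within the range of male L345. The male log2 fold change was -0.64 (SE 0.47, adjusted p = 0.384) and came to -0.015 without D and E (adjusted p = 0.989). Dgkz had 180, 256, 132 and 306 CPM in male L6S1 A, D, E and F, against 183, 235 and 267 CPM in male L345 A, B and C. Its female values were 116, 219 and 193 CPM in L6S1 A, B and C, against 153, 217 and 243 CPM in L345 A, B and C. Dgkz was thus at the upper end in D, where Prkcq was low, and its log2 fold change was -0.06 in males (SE 0.32) and -0.22 in females (SE 0.34). A predicted gene on the other strand, Gm9821, shares 3.54% of the exon bases of Dgkz and reached at most 0.243 CPM, and Gm16083 shares 2.1% of those of Cd55 and reached at most 5.43 CPM.

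Of the transmembrane proteins, Tmem45b was the steadiest gene of the list, with a highest library 1.85 times the lowest. It had 874, 980, 1200 and 765 CPM in male L6S1 A, D, E and F, against 855, 878 and 961 CPM in male L345 A, B and C. In females it had 648, 741 and 798 CPM in L6S1 A, B and C, against 809, 796 and 980 CPM in L345 A, B and C. E held the highest value after TMM scaling. By library totals alone E had 956 CPM, below female L345 C at 1001 and male L345 C at 979. The groups overlapped in both sexes, with log2 fold changes of 0.09 in males (SE 0.23) and -0.24 in females (SE 0.24). Tmem233 had 244, 675, 424 and 261 CPM in male L6S1 A, D, E and F, against 262, 475 and 533 CPM in male L345 A, B and C. Female L6S1 A, B and C held 173, 426 and 325 CPM of it, against 267, 461 and 444 CPM in female L345 A, B and C. D was the highest library, A and F of the same group were below male L345, and the log2 fold change was -0.08 in males (SE 0.40) and -0.34 in females (SE 0.42).

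Wnt2b, the secreted Wnt ligand, was low in every library. It had 5.03, 4.43, 3.63 and 9.22 CPM in male L6S1 A, D, E and F, against 2.01, 4.56 and 6.81 CPM in male L345 A, B and C. In females it had 3.44, 6.8 and 4.6 CPM in L6S1 A, B and C, against 1.75, 3.45 and 4.27 CPM in L345 A, B and C. Its log2 fold changes were 0.32 in males (SE 0.44) and 0.64 in females (SE 0.47), positive in both sexes and both with overlapping groups. Otoa had 22.7, 45.1, 36.7 and 30.1 CPM in male L6S1 A, D, E and F, against 19.5, 27.0 and 34.4 CPM in male L345 A, B and C. It had 14.4, 27.8 and 24.1 CPM in female L6S1 A, B and C, against 20.3, 27.9 and 37.9 CPM in female L345 A, B and C. Otoa had opposite signs in the sexes, a log2 fold change of 0.32 in males (SE 0.32) and -0.37 in females (SE 0.34), and neither passed the test.

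**Figure D3:**
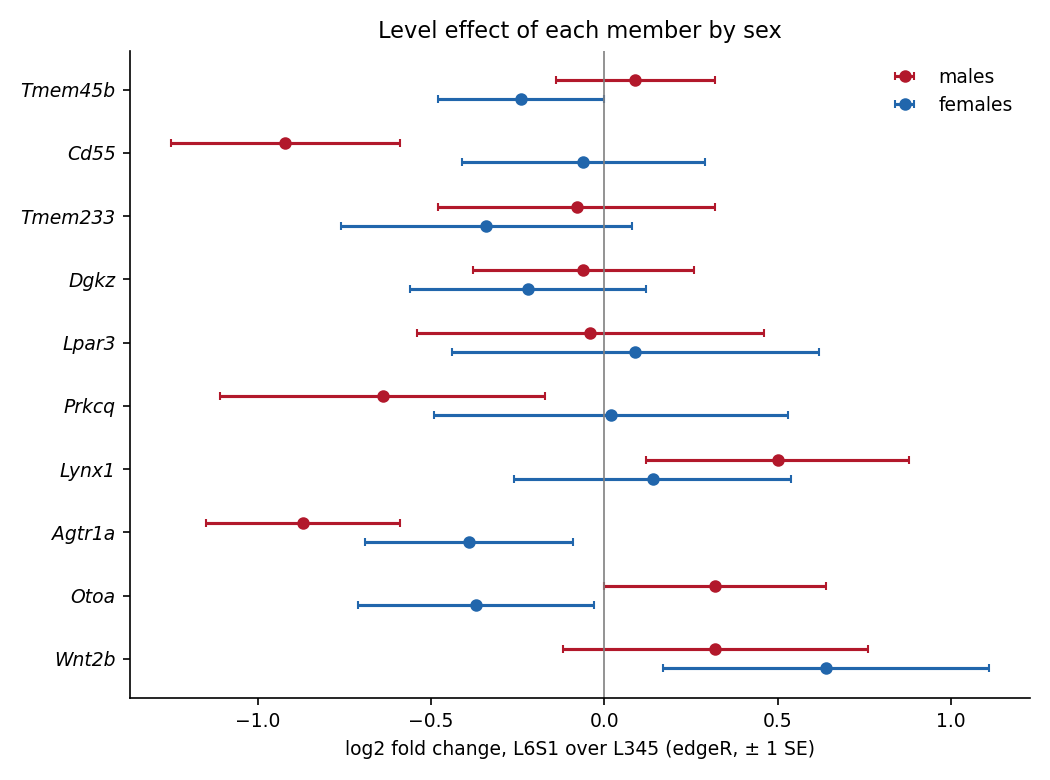
Log2 fold change of L6S1 over L345 for each gene, in males (upper point) and females (lower point), with bars of 1 SE on either side from edgeR. Cd55 and Agtr1a lie lowest in males at -0.92 and -0.87, and no gene passed the adjusted test in either sex.

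The level effect was also compared between the sexes by a test of the difference itself, males minus females, which called 0 of 10 members and 0 of 15406 genes (0.00%). At an unadjusted p under 0.05 there were 0 of 10, against 11.7% of all genes. The most negative difference was that of Cd55, at -0.85 with an SE of 0.48 (adjusted p = 0.424), and the most positive that of Otoa, 0.69 (SE 0.47, adjusted p = 0.476). Both lie within 2 SE of 0, and their intervals, -1.80 to 0.09 for Cd55 and -0.23 to 1.61 for Otoa, include sizeable differences.

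Between males and females, averaged over the levels, edgeR's test called 0 of 10 members and 12 of 15406 genes (0.0779%). At an unadjusted p under 0.05 there were 0 of 10, against 6.10% of all genes. The log2 fold changes of males over females ran from -0.26 for Cd55 (SE 0.24) to 0.34 for Wnt2b (SE 0.32), and the smallest adjusted p was that of Tmem45b, 0.694, at 0.22 (SE 0.17). With the replicate letter as a block, Prkcq was called at a log2 fold change of 0.50 (adjusted p = 0.0467) in a fit that called 2.40% of all genes, whereas without the block it was -0.19 (SE 0.35). That block compares only libraries whose letter occurs in both sexes, so male L6S1 D, E and F, whose letters occur in males alone, do not weigh in it. The submitters' processing notes name some tools for the female samples only, so sex and any difference in processing cannot be told apart.

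Within male L6S1 the members did not move as 1 block. In D and E, Cd55 had 406 and 239 CPM, against 508 to 1052 CPM in the other 11 libraries (median 858). Prkcq had 40.7 and 32.9 CPM in D and E, against 59.9 to 163 CPM (median 132). These 2 of 10 genes were below all other 11 libraries in both D and E, against 18.4% of all genes tested, and 0 of 10 were above them in both, against 17.8%. Tmem233, Otoa and Tmem45b went the other way, with log2 deviations from the median of the other 11 of 1.05, 0.73 and 0.27 in D and 0.38, 0.43 and 0.57 in E. Lpar3 deviated by -0.58 in D and -1.15 in E, and Agtr1a by -0.29 in D and -0.97 in E.

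Over the 10 members the median log2 deviation was -0.0851 in D and -0.751 in E. Their summed level, to which Tmem45b, Cd55 and Tmem233 gave most, was 2535 CPM in D and 2149 CPM in E, inside the 1986 to 3161 CPM of the other 11 libraries. The further nonpeptidergic list had a median log2 deviation of -1.03 in D and -1.75 in E over 26 genes. Its summed level was 2727 CPM in D and 1746 CPM in E, against 3745 to 6258 CPM in the other 11 libraries.

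Exon length moved with these deviations across all genes. Genes with exons under 1000 nucleotides had a median log2 deviation of 0.81 in D and 0.84 in E, and genes of 7000 nucleotides or more -0.52 in D and -0.81 in E. Cd55, at 4853 nucleotides, fell in a bin with medians of -0.27 in D and -0.34 in E, and its own deviations, -1.08 and -1.84, were above the 5th percentiles of that bin, -1.51 and -1.91. Prkcq, at 6326 nucleotides, fell in a bin with medians of -0.35 in D and -0.54 in E, and deviated by -1.69 and -1.99, below the 5th percentile of its bin in both libraries. In these bins 24.8% and 27.7% of genes were below all other 11 libraries in both D and E. Tmem45b is the shortest at 1572 nucleotides, and its deviations, 0.27 in D and 0.57 in E, were below the medians of its bin, 0.56 and 0.89. Tmem233, Lpar3 and Agtr1a share a bin with medians of 0.13 in D and 0.41 in E. Tmem233, at 1.05 and 0.38, was above its bin median in D only, and Lpar3 and Agtr1a were below it in both libraries. Otoa, at 4284 nucleotides, was high in a bin whose medians are negative. Markers of other cells moved as well in D and E: the 16 peptidergic genes summed to 26136 CPM in D and 33297 CPM in E, against 9311 to 15746 CPM. Of the 16, 4 were above all other 11 libraries in both (Calca, Calcb, Tac1 and Gal) and 2 below (Kit and Rab27b), and the median log2 deviation was 0.176 in D and 0.392 in E. The 12 immune genes summed to 26.3 CPM in D and 36.8 CPM in E, against 8.27 to 18.5 CPM. Satellite glia and Schwann cell genes summed to 4985 CPM in D and 10077 CPM in E, against 4057 to 5463 CPM. Of the 12 immune genes, 4 passed the filter on low counts (C1qb, Cd74, Lyz2 and Aif1). Their median log2 deviation was 1.11 in D and 1.64 in E. C1qa and Cx3cr1, which did not pass the filter, were at most 0.0471 CPM in both. The part of length, ribosomal share and the markers of other cells in the values of the members was not tested.

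**Figure D4:**
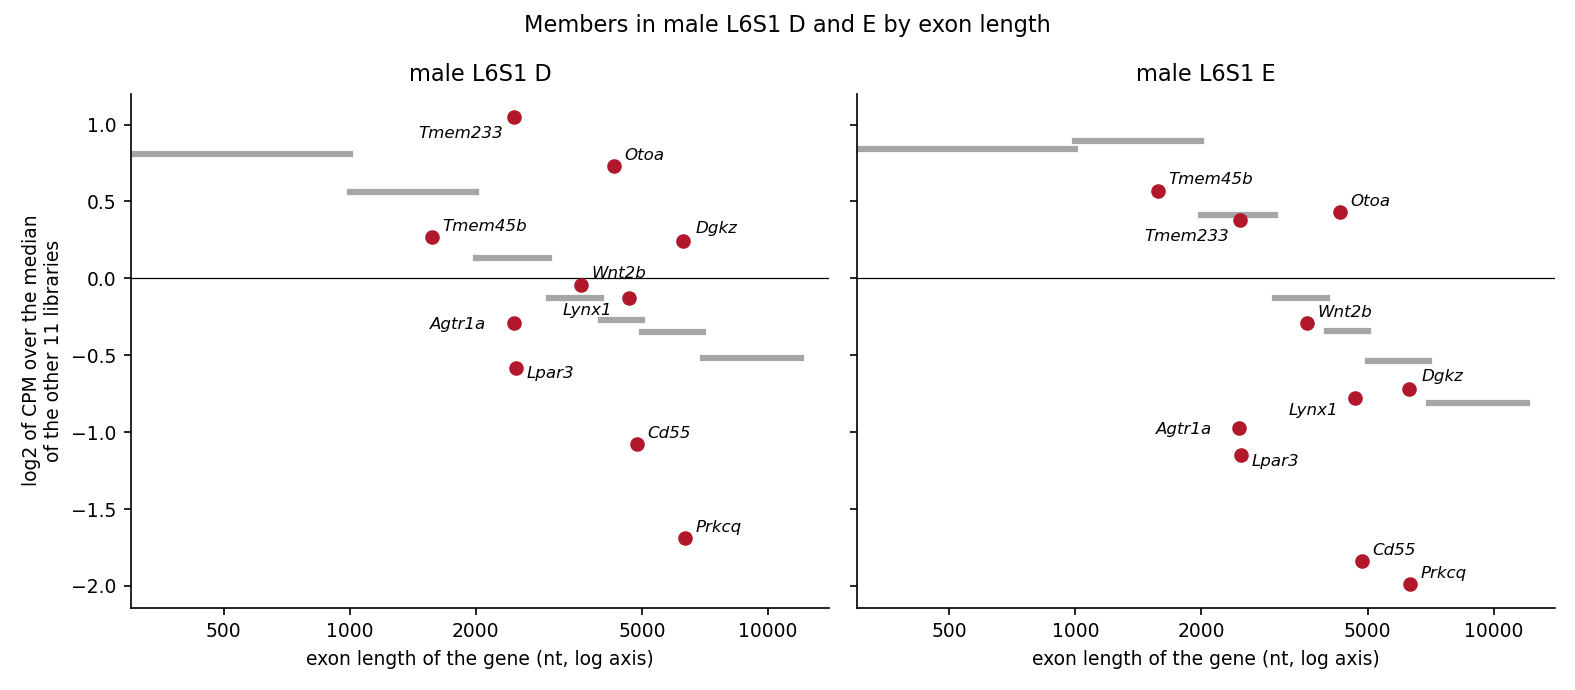
Log2 of the CPM in male L6S1 D (left) and E (right) over the median of the other 11 libraries, against exon length in nucleotides on a log axis, with the 10 members as points and the median of all tested genes in each length bin as grey bars (the first and last bins are drawn shortened). Cd55, Prkcq, Lpar3, Agtr1a and Tmem45b lie below the bars of their length in both libraries, and Otoa lies above in both. Tmem233, Lynx1, Wnt2b and Dgkz lie above in D and below in E.

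A second pattern cut across levels and sexes. In the 3 groups with libraries A, B and C, letter A was the lowest of its group for 8 of 10 members in all 3 groups, and the highest for 0 of 10. Over all genes tested, 21.7% were lowest in A in all 3 groups and 20.4% were highest. Lpar3 had the widest gap on average over the 3 groups, although Wnt2b had a wider one in male L345. A held 29.2 CPM in male L345, 22.8 in female L6S1 and 27.6 in female L345, against means of B and C of 62.9, 74.9 and 67.4 CPM. Prkcq in A had 90.2 CPM in male L345, 75.5 in female L6S1 and 59.9 in female L345, against B and C means of 149, 140 and 146 CPM. The exceptions were Cd55 and Tmem45b. Cd55 in A had 1052, 861 and 856 CPM in those groups, against B and C means of 922, 802 and 857 CPM, and Tmem45b had 855, 648 and 809 CPM, against 920, 769 and 888 CPM.

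Averaged over the 3 groups, the log2 ratio of A to the mean of B and C was -1.35 for Lpar3, -0.97 for Wnt2b, -0.96 for Prkcq and -0.94 for Tmem233. It was -0.77 for Lynx1, -0.72 for Otoa, -0.62 for Dgkz and -0.53 for Agtr1a, and close to 0 for Tmem45b (-0.16) and Cd55 (0.10). On the further nonpeptidergic list 9 of 26 genes, 34.6%, were lowest in A in all 3 groups. Other properties of the A libraries moved with this. They pooled the most mice of their groups, 5 in male L345, 7 in female L6S1 and 7 in female L345. Male L6S1 A, from 9 mice, pooled the most of all and was the lowest of its 4 libraries for 2 of 10 members (Tmem233 and Otoa) and the highest for 2 (Cd55 and Agtr1a), against 25.5% and 25.6% of all genes. Set against F alone it was lower for 7 of 10 members and 51.7% of all genes. In the 3 groups with A, B and C the mitochondrially encoded genes had median log2 ratios of A to B and C of 0.91 in male L345, 1.08 in female L6S1 and 1.45 in female L345. The GC content of a gene's longest transcript also moved with the ratio over all genes, with a median of 0.48 for genes under 40% GC and -0.47 for genes of 56% or more.

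The members were set beside these GC medians. Cd55 and Tmem45b, with 43.5% and 45.1% GC, were the lowest in GC and had the ratios nearest to 0, in bins with medians of 0.36 and 0.18. Agtr1a, Otoa and Prkcq, at 46.5%, 47.3% and 47.8% GC, belong to a bin with a median ratio of 0.18, and Lpar3 and Tmem233, at 50.3% and 49.2%, to a bin with a median of -0.02. Lynx1, Wnt2b and Dgkz, at 55.9%, 56.5% and 59.6% GC, belong to the bins with medians of -0.23 and -0.47. All 10 members lay below the median of their bin. The part of GC content, pool size or cell makeup in the A values was not tested.

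**Figure D5:**
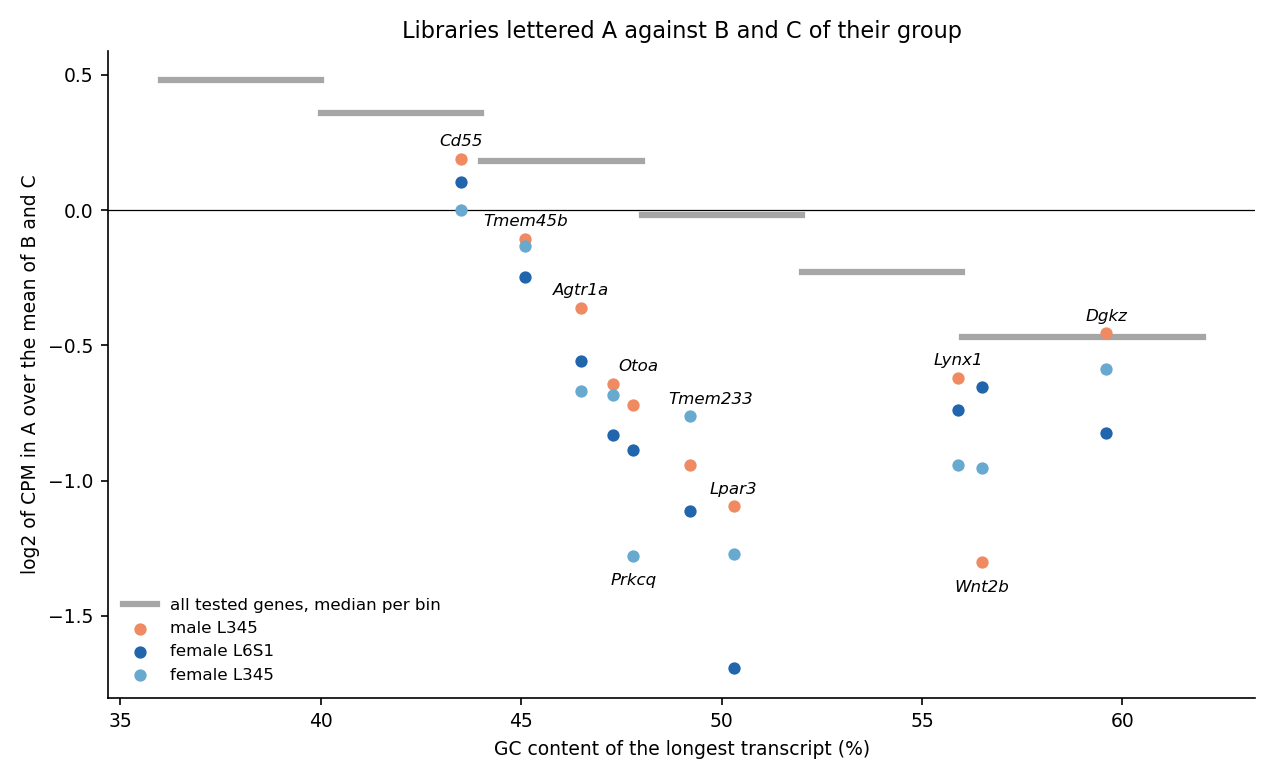
Log2 of the CPM in library A over the mean of B and C of the same group, against the GC content of the longest transcript in percent, for the 10 members in male L345, female L6S1 and female L345. Grey bars are medians of all tested genes per GC bin, averaged over the 3 groups, with the first and last bins drawn shortened. Lpar3 reaches the lowest ratios, and Cd55 is the only member with a point above 0.

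The pattern over the 13 libraries was compared between genes by the root mean square (RMS) difference of log2 CPM after centring each gene, which is smaller for a closer likeness. Among 11832 other genes whose mean log2 CPM was 1 or more, the 2 closest to Cd55 were Rgs4 at 0.12 and Car10 at 0.13, and the 2 closest to Prkcq were the diacylglycerol kinase Dgkg at 0.16 and Capn1 at 0.17. Tmem45b was closest to B230217O12Rik at 0.11 and Dapk2 at 0.13, Dgkz to C2cd2l and Ank1, both at 0.12, and Otoa to Hmox1 at 0.12 and Brf2 at 0.18. For Lynx1 they were Atp9a at 0.14 and Trafd1 at 0.15, for Lpar3 Atp13a1 at 0.17 and Trpc4ap at 0.19, and for Agtr1a Mab21l1 at 0.19 and Cachd1 at 0.20. The least close were those of Tmem233, Eef1a2 at 0.22 and Rab5c at 0.27, and of Wnt2b, S1pr2 at 0.24 and Plxdc1 at 0.25. Among the members themselves the closest pair was Otoa and Tmem233 at 0.27 and the farthest Prkcq and Tmem233 at 0.92.

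The pathways of the members were counted from wider lists, chosen with earlier results of these data known. Averaged over the sexes, edgeR called no gene between L6S1 and L345 among the 26 further nonpeptidergic genes, 10 tested genes of lysophosphatidic acid receptors and enzymes, 10 of the angiotensin system, 7 of the protein kinase C family, 9 diacylglycerol kinases or 10 complement regulators. The same held for 7 tested Ly6 family genes, 6 of the TMEM45 and dispanin families, 7 Wnt ligands, 22 Wnt receptors and antagonists and 1 tectorial membrane gene, Tecta. DESeq2, which called 1.01% of all genes it tested, called 7 genes of these lists: Ly6a, Lypd1, Syndig1, Syndig1l, Tmem91, Fzd7 and Mas1. The voom fit called Lypd1. Over all genes, edgeR called 0.448% and voom 0.383%. Per kilobase, Mrgprd averaged 141 ± 50.8, Trarg1 917 ± 369 and Dgkh 260 ± 119 CPM (SD, n = 13), against 33.1 for Dgkz.

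The smallest p values of these lists still name a few genes. Runx1, the transcription factor of this lineage, had a value of -0.59 (log2, SE 0.18, adjusted p = 0.314). Mas1, a receptor of angiotensin peptides, had 2.27 (SE 0.53, adjusted p = 0.0904) at a mean of only 0.412 CPM, and Lypd1, a Ly6 family gene, -1.44 (SE 0.31, adjusted p = 0.051) at 1.33 CPM. Plpp2, which removes phosphate from lysophosphatidic acid, had 0.66 (adjusted p = 0.246), the Wnt receptor Fzd7 -1.17 (adjusted p = 0.0936) and Tmem91 1.38 (adjusted p = 0.096), and none of these passed in edgeR. In males alone DESeq2 called 16 genes of these lists, in a fit that called 7.53% of all genes it tested. There edgeR called 1, Ly6a, in a fit that called 0.221% of all genes. Ly6a, a surface protein of the Ly6 family, rose in L6S1 by 2.60 on a log2 scale (adjusted p = 0.0253). It was highest in D and E at 50.1 and 97.1 CPM, against 7.29 to 29.8 CPM in the other 11 libraries. Without D and E edgeR did not call it. Among the 26 further nonpeptidergic genes edgeR called 0 in males and DESeq2 2, against 0.221% and 7.53% of all genes. In males 22 of 26 had a negative sign, against 47.9% of all genes tested, and in females 13 of 26, against 49.9%. The male signs share libraries D and E, where this list had median log2 deviations of -1.03 and -1.75. All 26 genes were measured in the same libraries, so their signs are not separate observations. Without male L6S1 A, 9 of 26 were called, in a fit that called 20.5% of all genes.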

How the data were processed

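Bulk RNA was measured in 13 libraries of EGFP-sorted cells, made from 10 ng of RNA with 12 cycles of PCR, per the labels' protocols. The submitters' processing notes name Subread, featureCounts 1.4.5 and GRCm38.p2 for all samples, and STAR 2.0.4b, Salmon and mm10 for the female ones; strand and multimapping settings were not found in these sources. The deposited count is a whole number per gene with no normalization. The CPM the authors deposited is that count over the library total, and the deposited RPKM is that CPM per kilobase; both served only as a check (largest relative difference 5.22e-14). Exon coordinates and exon lengths are those given with the deposited counts. Symbols came from GENCODE M21, in which 40254 identifiers matched and 1134 did not.

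Counts were filtered with filterByExpr, scaled with TMM factors (0.796 to 1.05) and tested with the robust quasi-likelihood test of edgeR 4.0.16 in R 4.3.3, 1 mean per group, with Benjamini-Hochberg adjustment over 15406 genes and a threshold of 0.05. The SE was derived by dividing the size of each log2 fold change by the root of its F statistic, and intervals are 1.96 SE wide on either side. Log2 deviations of a library used a prior of 0.5 CPM. Alternatives were DESeq2 1.42.0, limma 3.58.1 with voom, other scalings, no filter, a replicate block and leaving out libraries. Deviations from the group means correlated at 0.52, 0.203 and 0.488 between female libraries of the same letter, and at 0.101 in males. Between different letters of the same sex the correlations ran from -0.556 to 0.252 in females and -0.273 to 0.207 in males. Same-letter libraries thus did not always stand out. Taking the letters as pairs is an assumption of the replicate block and the pair counts, and the main fit does not use it. A floor of 3 counts is 0.111 to 0.23 CPM by library, for counting error only, since reads amplified by PCR without identifiers do not count molecules. Pools are the replicates, and without strand a gene and its antisense partner cannot be told apart. All 10 members are named; in wider lists the called genes or, without any, those of highest level or smallest p are named. The members and lists were chosen with earlier results of these data known.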

Additional observations from a re-analysis of the deposited data

How the results depend on the processing

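The 10 genes gave 1100 values over 5 comparisons and 22 alternatives, of which 1019 kept direction and side of the threshold, 3 came to pass it in the same direction and 78 changed sign. None of the 78 started from a called value, and 1 of them, Prkcq between the sexes with the replicate block, was called after the change. Between L6S1 and L345 in males, 1 member was called with DESeq2 (Agtr1a; 7.53% of all genes), and 0 to 2 when 1 replicate was left out, 2 without male L6S1 A (Cd55 and Agtr1a; 20.5% of all genes). Between the sexes 1 member was called with the replicate block, Prkcq at 0.50 (2.40% of all genes), and the block changed no other call of a member. In males that block rests on the single pair of A libraries.

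Sign changes are given as log2 fold changes. Averaged over the sexes, Lpar3 came to -0.055 with voom, -0.005 with library totals alone, -0.15 without male L6S1 E and F, -0.041 without the libraries lettered A (an alternative chosen after seeing the data), and -0.24 to 0.21 when 1 replicate was left out. Otoa ran from -0.14 to 0.097 on leaving out replicates, and Prkcq came to 0.17 with the replicate block. In females, leaving out replicates gave -0.094 to 0.004 for Cd55, -0.31 to 0.28 for Prkcq, -0.40 to 0.013 for Dgkz, -0.26 to 0.47 for Lpar3 and -0.12 to 0.42 for Lynx1, and Prkcq was -0.058 without the A libraries. In males, leaving out replicates gave -0.27 to 0.11 for Dgkz, -0.56 to 0.27 for Lpar3, -0.49 to 0.12 for Tmem233, -0.046 to 0.18 for Tmem45b and -0.040 to 0.75 for Wnt2b. There the replicate block gave 0.48 for Prkcq and 0.47 for Lpar3, library totals alone -0.060 for Tmem45b, and leaving out E and F 0.13 for Tmem233. Without D and E the male values were 0.082 for Dgkz, 0.39 for Lpar3, -0.042 for Otoa and -0.14 for Tmem45b.

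For the difference between the sexes in level effect, leaving out replicates gave -0.076 to 0.34 for Dgkz, -0.65 to 0.22 for Lpar3, -0.15 to 0.57 for Tmem233 and -0.68 to 0.11 for Wnt2b. The replicate block gave 0.41 for Prkcq, 0.66 for Wnt2b, 0.45 for Lpar3 and 0.086 for Agtr1a, and leaving out D and E 0.019 for Wnt2b, 0.30 for Lpar3 and -0.41 for Tmem233. For males over females, leaving out replicates gave -0.027 to 0.16 for Agtr1a, -0.39 to 0.043 for Lpar3 and -0.28 to 0.037 for Lynx1. The block gave 0.11 for Cd55, 0.27 for Lpar3 and 0.20 for Lynx1, leaving out D and E 0.12 for Prkcq, 0.078 for Lpar3, -0.096 for Tmem233 and 0.094 for Lynx1, and leaving out the A libraries -0.10 for Agtr1a. The cause of these changes was not tested.

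Counts over all genes depended more on the settings. In males, 34 genes were called, against 965 with DESeq2, 264 without the filter, 17 with voom, 0 with the block, 19 without D and E, 9 without E and F, 103 without the A libraries and 4 to 3135 when 1 replicate was left out, the highest without male L6S1 A. Averaged over the sexes, 69 genes stood against 187 with DESeq2, 144 without the filter, 37 without E and F and 28 to 129 on leaving out replicates. In females, 3 stood against 47 with DESeq2, 11 with voom, 34 without the filter, 56 with the block, 23 without D and E, 12 without E and F, 0 without the A libraries and 0 to 11 on leaving out replicates. Between the sexes, 12 stood against 24 with DESeq2, 19 without the filter, 369 with the block, 7 without D and E and 5 without the A libraries. Depth was lowest for Wnt2b, with 27 to 253 counts per library, and the other members had at least 250 in each.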
